A study of Homo sapiens with 2 samples.

Results

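The human mitochondrial genome carries 37 genes, and all 37 were found in the deposited gene tables by the MT- prefix of their symbols, among 58220 genes in all. They comprise 13 protein-coding genes, 2 rRNA genes and 22 tRNA genes. By the annotation, 28 lie on the plus strand of the reference and are called heavy-strand genes here (12 mRNA, 2 rRNA and 14 tRNA genes), and 9 lie on the minus strand and are called light-strand genes (MT-ND6 and 8 tRNA genes). The study addressed what loss of FGF9, a fibroblast growth factor, does to chondrocytes, the cells of cartilage. RNA was sequenced from C28/I2, an established line of immortalised human chondrocytes, after lentiviral infection with either a control vector (shvoid) or 1 shRNA against FGF9 (shFGF9-D1). Both groups are of the same line, received virus at an moi of 10, were harvested 72 hr after infection, and consist of 1 library each. No replicate check exists for any difference, and all intervals cover counting error only, so that they compare these 2 libraries and not the conditions.

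The libraries were shallow, with 519192 counts in shvoid and 502774 in shFGF9-D1, and 4000 genes reached 10 counts in at least 1 of them. FGF9 itself had 0 counts in both libraries, which allows up to 5.78 CPM in shvoid and 5.97 CPM in shFGF9-D1, so the knockdown could not be checked in these tables. Of 16 chondrocyte markers, 10 had a count and 3 reached 10 counts, with 57 summed counts in shvoid and 45 in shFGF9-D1. COL2A1, COL11A1, COL11A2, SOX5, HAPLN1 and COMP, which include the main collagen of cartilage, were at 0 in both libraries, and SOX9, a regulator of the chondrocyte fate, had 2 and 1 counts. Genes that every cell uses were also low in these tables, GAPDH at 8 and 11 counts and RPLP0 at 4 and 11, so the marker counts do not bear on the labelled cell type.

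The strand to which a count belongs affects the meaning of every value in these tables, FGF9 and the markers included. A strand-specific kit was used for the libraries, but no source at hand names the strand on which reads were then counted. All 74 nuclear genes with at least 1000 counts shared exon bases with a gene annotated on the opposite strand. The share was 77.1% over the 4000 genes with at least 10 counts and 21.6% over the 57882 genes with a matched annotation. ACTB, a cytoskeletal actin that shares no exon bases with an opposite gene, had 47 and 31 counts, and 10 genes that most cells express strongly ranged from 0 to 47 counts in shvoid and from 0 to 31 in shFGF9-D1. Should the counting have used the opposite strand, counts under MT-ND6 stand for RNA that runs in the sense of the heavy-strand genes, and counts under the other 12 mRNA genes stand for RNA antisense to them. Genes annotated as antisense held 27.5% of all counts in shvoid and 29.4% in shFGF9-D1. Which of the 2 readings holds was not tested for any gene. Values are therefore given for the annotated position and strand, and the name of a gene marks where its counts fell.

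Mitochondrial DNA is transcribed from promoters on both strands into long polycistronic RNAs, and tRNAs that punctuate the mRNAs and rRNAs are cut out to release them. The 13 protein-coding genes encode core subunits of the respiratory chain and of ATP synthase, and the rRNAs and tRNAs serve the ribosome that translates their mRNAs inside the organelle. MT-ND6 is the only mRNA encoded on its strand, and most of the remaining RNA of that strand has no coding function and is rapidly degraded.

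Neighbouring genes of this genome abut or overlap, which bears on how reads could be assigned. The gene ends where counts of neighbours meet are shown from GENCODE release 29 transcripts on GRCh38, written 5′ to 3′ along each gene. MT-ATP8 (chrM:8366-8572) and MT-ATP6 (chrM:8527-9207) share 46 bases, and MT-ND4L (chrM:10470-10766) and MT-ND4 (chrM:10760-12137) share 7, which are in capitals in the first 4 sequences. MT-ND5 (chrM:12337-14148, plus strand) and MT-ND6 (chrM:14149-14673, minus strand) meet with no gap and run towards each other, and capitals mark the last codon of each.
MT-ATP8 end: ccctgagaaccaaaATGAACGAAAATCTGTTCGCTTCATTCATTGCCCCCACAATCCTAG
MT-ATP6 start: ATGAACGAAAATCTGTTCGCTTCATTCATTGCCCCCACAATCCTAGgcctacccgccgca
MT-ND4L end: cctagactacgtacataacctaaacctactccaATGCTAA
MT-ND4 start: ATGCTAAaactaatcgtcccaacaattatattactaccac
MT-ND5 end: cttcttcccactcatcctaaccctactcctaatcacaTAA
MT-ND6 end: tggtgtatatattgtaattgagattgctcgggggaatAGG
These windows lie at chrM:8513-8572 and chrM:8527-8586, at chrM:10727-10766 and chrM:10760-10799, and at chrM:14109-14148 and chrM:14149-14188. A read within the 46 shared bases can be given to either ATP synthase gene, whereas MT-ND5 and MT-ND6 share no base and differ in strand, so strand alone decides the count of a read that crosses their border. The 2 strands also differ in make-up. Along its own sense MT-ND6 held 35.6% G and 7.05% C, while the 12 heavy-strand mRNA genes held from 6.28% to 16.2% G and from 29.5% to 36.0% C.

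Counts were spread very unevenly over the 37 genes. All 13 mRNA genes and both rRNA genes reached 10 counts in at least 1 library, whereas none of the 22 tRNA genes did. Of the tRNA genes, which are 59 to 75 bases long, 21 had 0 counts in both libraries, and MT-TY, the gene of the tyrosine tRNA, had 1 count in each. Its FPKM (fragments scaled for gene length and for the number of mapped fragments) was nevertheless 41003.7 in shvoid and 41357.4 in shFGF9-D1, from 1 count in a gene of 66 bases. MT-TY (chrM:5826-5891, minus strand) is shown with the base that it shares with MT-TC in capitals.
MT-TY: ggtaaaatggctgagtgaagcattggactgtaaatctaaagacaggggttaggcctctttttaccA
With both counts under 3, no fold was computed for any tRNA gene, and the FPKM of MT-TY was not used as a level.

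Levels were compared between genes as counts per kilobase of annotated length. MT-ND6, a membrane subunit of complex I, was highest, with 69391 counts per kb in shvoid and 71192 in shFGF9-D1. MT-ND5, a proton-pumping subunit of the same complex, followed with 17036 and 10206, and MT-ND4, another such subunit, with 7808 and 4396. MT-CYB, which encodes cytochrome b, the only subunit of complex III made in mitochondria, had 4670 and 2145 counts per kb. These 4 genes form the last part of the coding sequence in genome order, and they took ranks 1, 2, 4 and 8 by count among all genes of the shvoid library. In the shFGF9-D1 library, MT-ND6 and MT-ND5 kept ranks 1 and 2, while MT-ND4 stood at rank 6 and MT-CYB at rank 16.

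The remaining heavy-strand mRNA genes were closer together, all under MT-CYB in shvoid, while in shFGF9-D1 MT-ND3 and MT-ND4L were above it. In shvoid, the complex I genes MT-ND3 and MT-ND4L had 4072 and 3949 counts per kb, the complex IV gene MT-CO3 had 2365 and the ATP synthase gene MT-ATP6 had 2305. MT-ND2, MT-CO2, MT-ATP8 and MT-ND1 lay between 1440 and 1914, and MT-CO1, the catalytic subunit of complex IV, was lowest at 879. In shFGF9-D1 the same genes ranged from 497 counts per kb for MT-CO1 to 2630 for MT-ND3. The order of the 15 genes was nearly the same in both libraries, with a Spearman rho of 0.98 between them over genes that share 1 genome and are not independent.

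**Figure D1:**
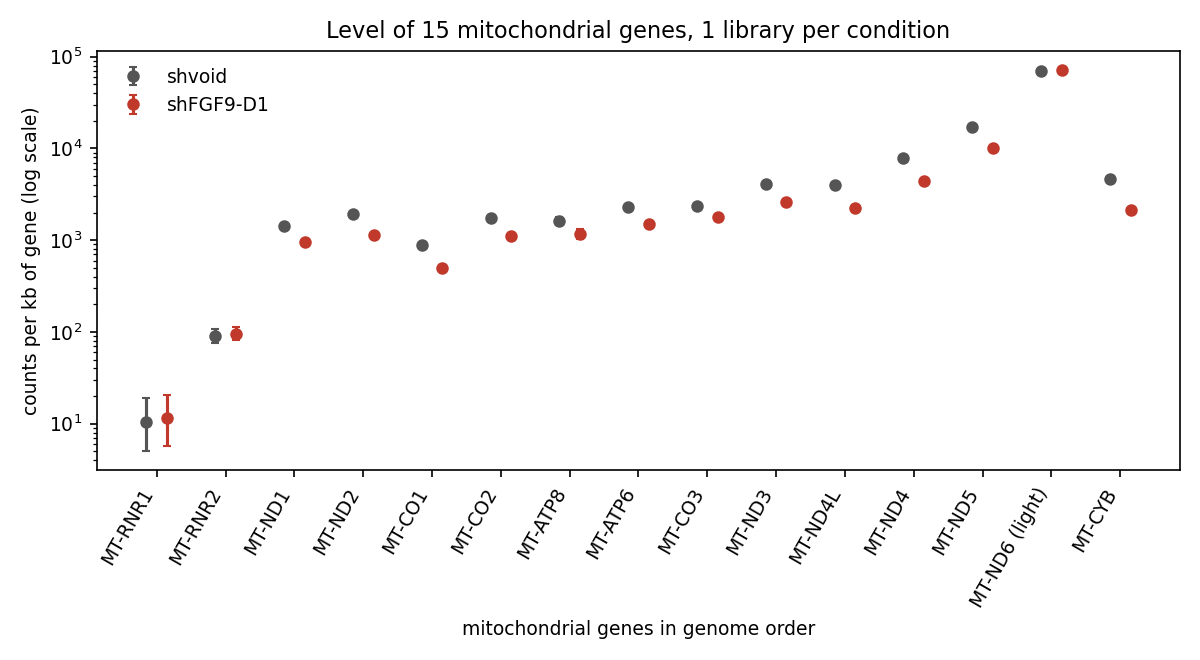
Counts per kilobase of annotated length (log scale) of the 15 mitochondrial genes with at least 10 counts, in genome order, in the shvoid library (grey) and the shFGF9-D1 library (red), with bars for the exact Poisson 95% counting interval. MT-ND6 is highest in both libraries, and each of the 12 heavy-strand mRNA genes has its red point under the grey one.

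Both rRNA genes had few counts. MT-RNR2, the large rRNA of the mitochondrial ribosome, had 142 counts in shvoid and 149 in shFGF9-D1, and MT-RNR1, the small rRNA, had 10 and 11. Per kb, these were 91.1 and 95.6 for MT-RNR2 and 10.5 and 11.5 for MT-RNR1. In shvoid, MT-CO1 was 9.65-fold above MT-RNR2 per kb (interval 8.11 to 11.6), and MT-RNR2 was 8.69-fold above MT-RNR1 (interval 4.59 to 18.5). No source at hand says whether rRNA was depleted before sequencing.

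Along the genome, counts per kb of the 12 heavy-strand mRNA genes were higher towards the end of the coding sequence. Spearman's rho with the gene's midpoint was 0.91 in shvoid and 0.89 in shFGF9-D1 over 12 genes that lie on 1 strand of 1 genome. MT-ND5 stood 11.8-fold above MT-ND1 in shvoid (interval 11.2 to 12.5) and 10.5-fold in shFGF9-D1 (interval 9.87 to 11.3), and 19.4-fold above MT-CO1 in shvoid (interval 18.4 to 20.5) and 20.5-fold in shFGF9-D1 (interval 19.1 to 22.1). The step in level along the genome was thus present in the control library and close in size in the other.

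Between the libraries, the 12 heavy-strand mRNA genes were all lower in shFGF9-D1, while MT-ND6 and the rRNA genes were not. Ratios are of counts scaled by edgeR's TMM factors and are given as log2 of shFGF9-D1 over shvoid with a 95% interval. A gene was called when it had at least 10 counts in 1 library, differed at least 2-fold and had an interval that excluded equal levels. By this rule MT-CYB was the 1 member called lower of the 15 with 10 counts, and 0 were called higher, beside 5.38% lower and 4.7% higher among all 4000 genes and 5.37% and 4.72% among the 3985 nuclear ones. Intervals excluded equal levels on the lower side for 12 of the 15 and on the higher side for MT-ND6, beside 10.7% and 15.8% of the 4000 genes and 10.4% and 15.8% of the nuclear ones. Since deep genes have narrow intervals, the 86 genes with at least 1000 counts are the closer background, and there 27.9% were lower and 54.7% higher, and 2.33% and 1.16% by the 2-fold rule. These 86 include 11 of the 12 heavy-strand mRNA genes, all lower, and of the 74 nuclear genes at this depth 17.6% were lower and 62.2% higher, and 1.35% were lower and 1.35% higher by the 2-fold rule.

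MT-CYB had 5329 counts in shvoid and 2448 in shFGF9-D1 (log2 ratio -1.04, interval -1.11 to -0.97), 51.4% lower. MT-CO3, a core subunit of complex IV, was the least lower of the 12 with 1854 and 1409 counts (log2 ratio -0.31, interval -0.41 to -0.21), 19.6% lower. The 12 genes thus ran from a ratio of 0.486 to 0.804, with a median log2 ratio of -0.62. The median over all 4000 genes was 0.04, and that over the 74 nuclear genes with at least 1000 counts was 0.19, of which 6 lay at or below the log2 ratio of MT-CO3.

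**Figure D2:**
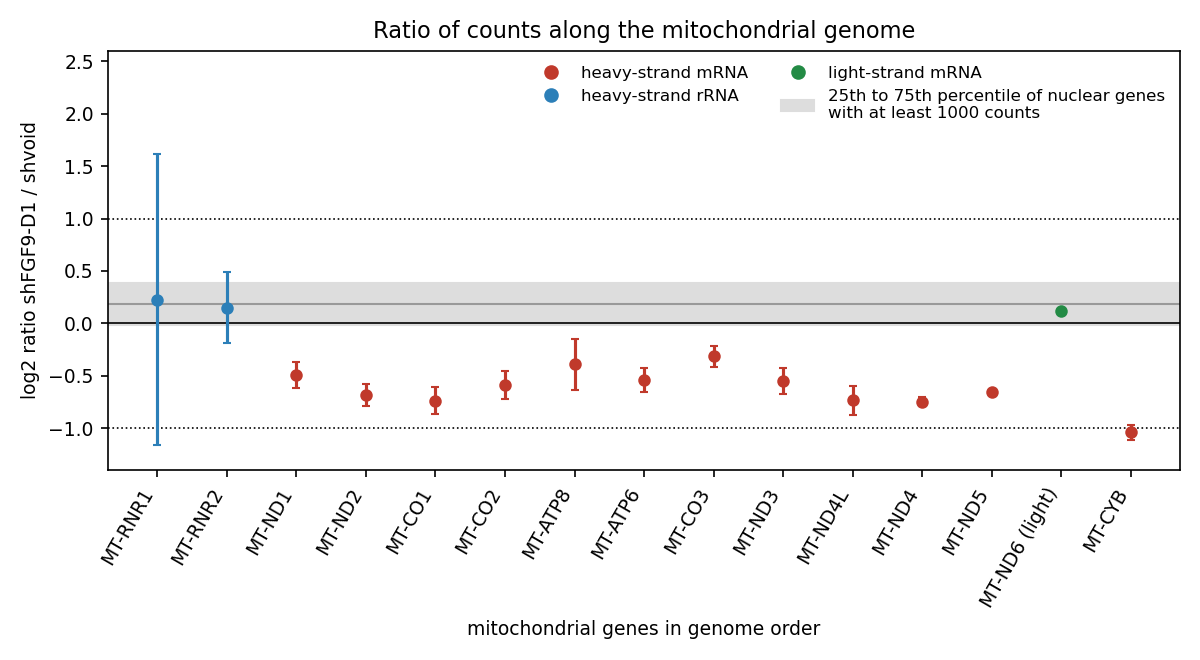
Log2 ratio of shFGF9-D1 over shvoid for the 15 mitochondrial genes in genome order, with 95% counting intervals, heavy-strand mRNA genes in red, rRNA genes in blue and MT-ND6 in green. The grey band and line give the 25th to 75th percentile (-0.02 to 0.39) and the median (0.19) of the 74 nuclear genes with at least 1000 counts, dotted lines mark 2-fold, and all 12 red points lie under 0.

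Complex I takes in electrons from NADH and has 7 mitochondrially encoded subunits, 6 of them on the heavy strand. MT-ND5 had 30869 counts in shvoid and 18494 in shFGF9-D1 (log2 ratio -0.66, interval -0.68 to -0.63), and MT-ND4 had 10760 and 6058 (log2 ratio -0.75, interval -0.79 to -0.70). MT-ND4L, a small membrane subunit, had 1173 and 667 counts (log2 ratio -0.73, interval -0.87 to -0.59). MT-ND2 was at 1994 and 1177 counts, MT-ND3 at 1409 and 910, and MT-ND1, which helps to form the quinone site, at 1377 and 925, with log2 ratios of -0.68, -0.55 and -0.49. Summed over the 6 genes, counts were 47582 and 28231, a ratio of 0.628 (interval 0.619 to 0.637). Under opposite-strand counting these values stand for RNA antisense to the 6 genes and not for their mRNAs.

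Complex IV, which passes electrons to oxygen, was represented by 3 genes, all lower in shFGF9-D1. MT-CO1 had 1355 counts in shvoid and 767 in shFGF9-D1 (log2 ratio -0.74, interval -0.87 to -0.61), and MT-CO2, which receives electrons from cytochrome c, had 1204 and 759 (log2 ratio -0.58, interval -0.72 to -0.45). With MT-CO3, the 3 genes summed to 4413 and 2935 counts, a ratio of 0.704 (interval 0.672 to 0.738). The ATP synthase genes were at a similar ratio. MT-ATP6, which forms part of the proton channel, had 1570 and 1021 counts (log2 ratio -0.54, interval -0.65 to -0.42), and MT-ATP8, a short membrane subunit, had 337 and 243 (log2 ratio -0.39, interval -0.63 to -0.15). Their sum gave a ratio of 0.702 (interval 0.653 to 0.754), and over heavy-strand genes alone the ratio was lowest for complex III, next for complex I, and higher for complexes V and IV, whose intervals overlapped. This order leaves out MT-ND6, with which complex I summed to 84012 and 65607 counts, a ratio of 0.827 (interval 0.818 to 0.835), the highest of the 4 complexes. Under opposite-strand counting the order would not be one of the mRNAs of these complexes.

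Neighbouring genes, some of which share a processed mRNA, were compared within the libraries, where the scaling between libraries cancels. Should the counting have used the opposite strand, these counts stand for RNA antisense to the mRNAs. MT-ND4L and MT-ND4, whose mRNA is bicistronic, gave a ratio of ratios of 1.01 (interval 0.912 to 1.12). MT-ATP8 and MT-ATP6, the other bicistronic pair, gave 1.11 (interval 0.919 to 1.34). Both intervals include 1, and the second leaves room for the wider difference. MT-ATP6 and the adjoining MT-CO3 differed, with 0.856 (interval 0.769 to 0.952), and so did MT-CO3 and MT-ND3 at 1.18 (interval 1.05 to 1.31) and MT-ND1 and MT-ND2 at 1.14 (interval 1.02 to 1.27). For the other adjoining mRNA genes of this strand up to MT-ND4L the intervals included 1, with 1.04 for MT-ND2 and MT-CO1 (0.929 to 1.17), 0.898 for MT-CO1 and MT-CO2 (0.789 to 1.02), 0.874 for MT-CO2 and MT-ATP8 (0.721 to 1.06) and 1.14 for MT-ND3 and MT-ND4L (0.999 to 1.29). MT-ND4 and MT-ND5 gave 0.940 (interval 0.906 to 0.975). MT-CYB was lower than MT-ND5 by a ratio of ratios of 0.767 (interval 0.728 to 0.807).

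In order of ratio the genes stood as MT-CYB, MT-ND4, MT-CO1, MT-ND4L, MT-ND2, MT-ND5, MT-CO2, MT-ND3, MT-ATP6, MT-ND1, MT-ATP8, MT-CO3, MT-ND6, MT-RNR2 and MT-RNR1. Between neighbours in this order, 2 steps exceeded counting error. MT-CYB lay under MT-ND4 (ratio of ratios 0.816, interval 0.770 to 0.864), and MT-CO3 lay under MT-ND6 (0.741, interval 0.690 to 0.796). The log2 ratio of the 12 heavy-strand mRNA genes had a Spearman rho of -0.41 with genome position, -0.54 with gene length and -0.36 with counts per kb in shvoid, all over 12 genes of the same 2 libraries.

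MT-ND6 differed from its neighbours on either side. It had 36430 counts in shvoid and 37376 in shFGF9-D1 (log2 ratio 0.12, interval 0.10 to 0.14), while MT-ND5 upstream and MT-CYB downstream were lower. Relative to MT-ND6, the ratio of MT-ND5 was 0.584 (interval 0.570 to 0.598), that of MT-CYB was 0.448 (interval 0.426 to 0.471), and that of the 12 heavy-strand mRNA genes together was 0.574 (interval 0.563 to 0.585). Per kb, MT-ND6 was 4.07-fold above MT-ND5 in shvoid and 6.98-fold in shFGF9-D1, and 14.9-fold and 33.2-fold above MT-CYB. In FPKM the same folds were 0.701 and 1.01 over MT-ND5 and 2.65 and 4.99 over MT-CYB, so that MT-ND6 was under MT-ND5 in shvoid by this unit. The direction of MT-ND6 itself turned with the unit, since its log2(FPKM + 1) differed by -0.02, and its log2 ratio lay within the 25th to 75th percentile range of nuclear genes with at least 1000 counts.

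The rRNA genes, which are annotated on the same strand as the 12 mRNA genes and precede them in genome order, did not share their lower ratio. MT-RNR2 had a log2 ratio of 0.15 (interval -0.19 to 0.49) and MT-RNR1 of 0.22 (interval -1.16 to 1.61), while in log2(FPKM + 1) they differed by -0.01 and 0.13. Their sum of 152 counts in shvoid and 160 in shFGF9-D1 gave a ratio of 1.11 (interval 0.887 to 1.40). The 12 mRNA genes relative to this sum were at 0.559 (interval 0.445 to 0.703), and MT-ND1, the first mRNA gene after the rRNAs, was at 0.640 relative to MT-RNR2 (interval 0.497 to 0.824). The contrast among genes annotated on the heavy strand thus exceeded counting error although the rRNA counts were low. Under opposite-strand counting it would be a contrast between RNAs antisense to these genes.

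Mitochondrial genes made up 18.5% of all counts in shvoid (exact binomial interval 18.3 to 18.6) and 14.4% in shFGF9-D1 (interval 14.3 to 14.5). Within them, MT-ND6 took 38.0% in shvoid (interval 37.7 to 38.3) and 51.6% in shFGF9-D1 (interval 51.2 to 52.0), MT-ND5 took 32.2% and 25.5%, MT-ND4 11.2% and 8.37%, and MT-CYB 5.56% and 3.38%. The other 9 heavy-strand mRNA genes together held 12.8% and 10.9%, and the rRNA genes 0.159% and 0.221%. Of all counts in the library, MT-ND6 held 7.02% and 7.43%, while the 12 heavy-strand mRNA genes held 11.4% and 6.94%. The lower mitochondrial share therefore lay with the heavy-strand mRNA genes, whose sum was 59231 and 34878 counts, a ratio of 0.623 (interval 0.615 to 0.632) and 0.611 without MT-ND5. MT-ND6 (ratio 1.09, interval 1.07 to 1.10) and the rRNA genes (1.11), which lie on the same genome, were not lower. In RNA from whole cultures, fewer cells of a kind and less RNA per cell cannot be told apart.

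**Figure D3:**
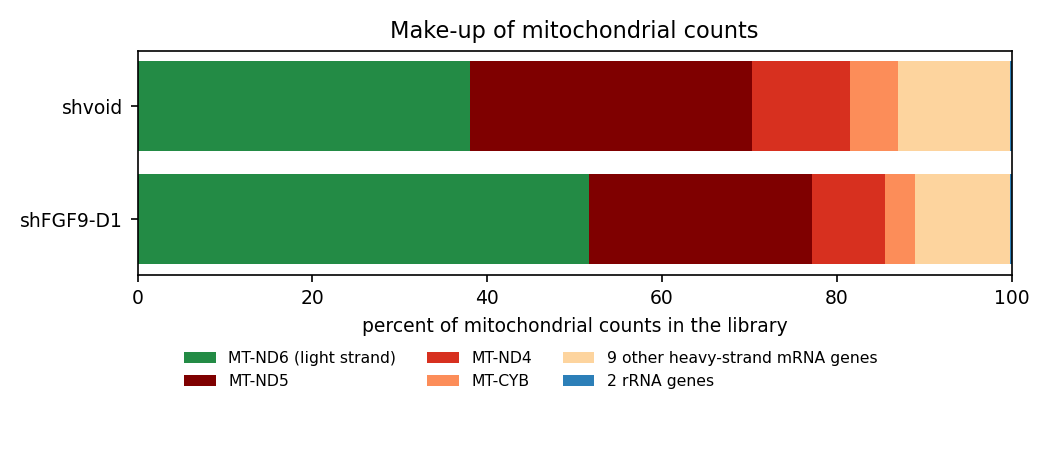
Make-up of the mitochondrial counts of each library in percent, with MT-ND6 in green, MT-ND5, MT-ND4, MT-CYB and the other 9 heavy-strand mRNA genes in shades of red and the rRNA genes as a thin blue strip at the right. MT-ND6 takes 38.0% in shvoid and 51.6% in shFGF9-D1, and each of the other mRNA segments is narrower in shFGF9-D1.

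The deposited FPKM values ranked the 15 genes much as counts per kb did, with a Spearman rho of 0.92 in shvoid and 0.94 in shFGF9-D1, but MT-ND6 was placed differently. Among the 9 heavy-strand mRNA genes longer than MT-ND6, 1 count per kb corresponded to between 3.45 and 5.66 FPKM in shvoid, whereas for MT-ND6 it corresponded to 0.819. The 3 shorter genes were above this range, at 6.86 for MT-ND3, 9.12 for MT-ND4L and 17.1 for MT-ATP8. In FPKM, MT-ND5 was therefore the highest member in shvoid, with 81144.5 against 56864.9 for MT-ND6, and both stood nearly level in shFGF9-D1, at 55596 and 55986. The 12 heavy-strand mRNA genes were lower in shFGF9-D1 in FPKM too, with differences in log2(FPKM + 1) from -0.34 for MT-CO3 to -0.94 for MT-CYB. The lower FPKM per count of MT-ND6 was not accounted for by any source at hand.

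**Figure D4:**
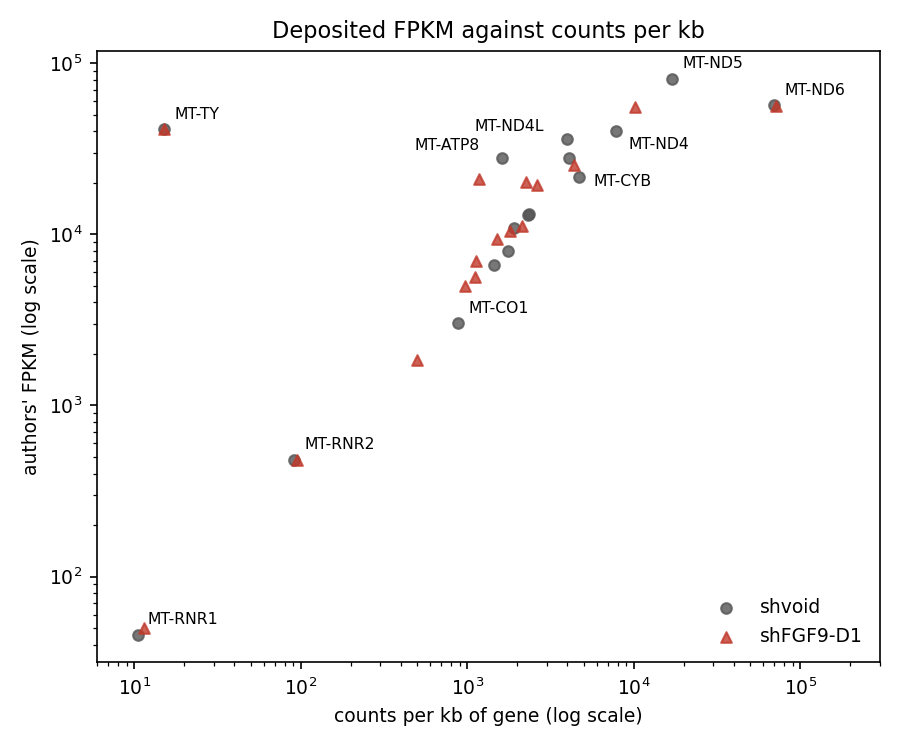
The authors' FPKM against counts per kilobase (both log scales) for the 15 mitochondrial genes with at least 10 counts and MT-TY, in shvoid (grey circles) and shFGF9-D1 (red triangles). Most genes lie along 1 band, MT-TY lies far above it with 1 count, and MT-ND6 lies below it at 0.819 FPKM per count per kb in shvoid.

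Nuclear DNA holds many inserted copies of mitochondrial sequence, and reads of near-identical copies can be exchanged between a mitochondrial gene and its copy. The tables list 405 genes named as such copies, of which 39 had a count and 9 reached 10 counts, with 824 summed counts in shvoid and 631 in shFGF9-D1. These sums correspond to 0.86% and 0.871% of the mitochondrial counts. Of the 9 copies, 3 were called 2-fold lower and 0 higher, beside 5.38% and 4.7% of all genes with 10 counts.

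The largest of the copies and a block on chromosome 5 show how close the sequences are. On GRCh38, MTCYBP18 (chr5:134923303-134924049, minus strand), MTND6P4 (chr5:134924123-134924644, plus), MTND5P11 (chr5:134924648-134926459, minus) and MTND4P12 (chr5:134926660-134928036, minus) keep the mitochondrial gene order, with the MT-ND6 copy on the opposite strand to the other 3. MTND6P4 differed from MT-ND6 at 26 aligned bases. MTND5P11 was 93.0% identical to MT-ND5, MTND4P12 95.7% to MT-ND4 and MTCYBP18 91.8% to MT-CYB, and on chromosome 1 MTATP6P1 was 98.5% identical to MT-ATP6. For 4 of these pairs, the 60 bases without a gap that hold the most mismatches are shown from GENCODE release 29 transcripts. The differing bases are in capitals. These stretches are thus less alike than the whole alignments, with 14 mismatches for MTND5P11 and 3 for MTATP6P1.
MT-ND6: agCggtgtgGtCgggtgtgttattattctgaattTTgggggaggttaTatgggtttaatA
MTND6P4: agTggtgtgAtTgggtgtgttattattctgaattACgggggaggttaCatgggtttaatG
MT-CYB: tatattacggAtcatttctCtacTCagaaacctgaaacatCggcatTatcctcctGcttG
MTCYBP18: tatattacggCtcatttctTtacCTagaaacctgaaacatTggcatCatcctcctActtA
MT-ND5: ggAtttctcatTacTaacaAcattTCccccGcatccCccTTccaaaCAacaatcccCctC
MTND5P11: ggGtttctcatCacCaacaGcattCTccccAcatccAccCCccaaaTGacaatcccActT
MT-ATP6: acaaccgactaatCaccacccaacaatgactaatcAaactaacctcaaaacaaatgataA
MTATP6P1: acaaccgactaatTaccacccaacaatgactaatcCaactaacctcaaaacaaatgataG
Counted from the first base of each mitochondrial gene, the windows span bases 103 to 162 of MT-ND6, 305 to 364 of MT-CYB, 1393 to 1452 of MT-ND5 and 116 to 175 of MT-ATP6. The longest run without a mismatch over the whole alignment was 91 bases for MTND6P4, 62 for MTCYBP18, 77 for MTND5P11 and 141 for MTATP6P1. A read inside such a run cannot be placed by its sequence.

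The chromosome 5 copies followed the split seen in their mitochondrial genes. MTND6P4 had 92 counts in shvoid and 110 in shFGF9-D1 (log2 ratio 0.34, interval -0.07 to 0.76). MTND5P11 had 110 and 48 (log2 ratio -1.11, interval -1.64 to -0.61), MTND4P12 had 60 and 30 (log2 ratio -0.92, interval -1.60 to -0.26), and MTCYBP18 had 25 and 10 (log2 ratio -1.24, interval -2.46 to -0.13). Summed over these 3, counts were 195 and 88, and relative to MTND6P4 their ratio was 0.378 (interval 0.255 to 0.558). The ratio of each copy relative to its own mitochondrial gene had an interval that included 1, from 0.728 for MTND5P11 (interval 0.507 to 1.03) to 1.17 for MTND6P4 (interval 0.875 to 1.55). Reads shared between a copy and its gene could give the same pattern, and this was not tested.

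The copies elsewhere were less uniform. MTATP6P1, the most counted, had 321 counts in shvoid and 286 in shFGF9-D1 (log2 ratio -0.08, interval -0.32 to 0.15) and stood above MT-ATP6 by a ratio of ratios of 1.37 (interval 1.14 to 1.64). MTND2P28, 98.4% identical to MT-ND2, had 75 and 56 counts (log2 ratio -0.34, interval -0.87 to 0.18). MTND1P8, 75.3% identical to MT-ND1, had 14 and 2 counts and was, with MTND5P11 and MTCYBP18, called lower. It stood under MT-ND1 by a ratio of ratios of 0.213 (interval 0.0234 to 0.930). The handling of reads with several matches is not stated, so the counts of both members and copies are uncertain to this extent.

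**Figure D5:**
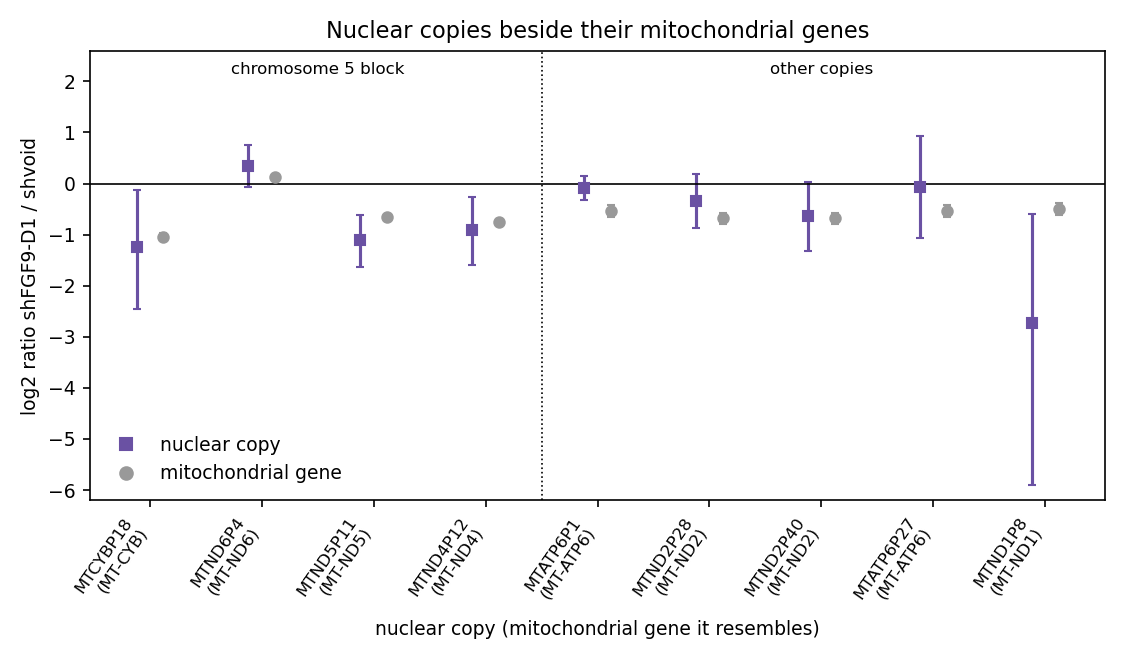
Log2 ratio of shFGF9-D1 over shvoid, with 95% counting intervals, for the 9 nuclear copies with at least 10 counts (purple squares) and for the mitochondrial gene each resembles (grey circles). In the chromosome 5 block, MTND6P4 lies above 0 with an interval that includes it, and the other 3 copies lie under 0.

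Most mitochondrial proteins are encoded in the nucleus, and 9 lists of such genes were examined beside the mitochondrial ones. Of 286 listed genes in the tables, 57 reached 10 counts, of which 3 were called higher and 4 lower, beside 4.7% and 5.38% of all genes. Their median log2 ratio was 0.08, against 0.04 for all 4000 genes. Of the 57, 46 shared exon bases with an opposite-strand gene, so that the limit on strand holds for them as well.

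Genes that maintain and transcribe mitochondrial DNA gave 0 calls, beside 5.38% lower and 4.7% higher among all 4000 genes. With 7 and 4 genes at 10 counts, 0 calls cannot be told apart from these shares. In the list of mitochondrial DNA maintenance, 7 genes passed the minimum of 10 counts, and their median log2 ratio was 0.30. POLG, the catalytic subunit of the mitochondrial DNA polymerase, had 351 counts in shvoid and 424 in shFGF9-D1 (log2 ratio 0.35, interval 0.15 to 0.56), LIG3, a DNA ligase, had 52 and 69, and SLC25A4, an ADP/ATP carrier, had 42 and 26. That median was -0.25 in log2(FPKM + 1). For mitochondrial transcription, 4 genes reached 10 counts with a median of 0.45, which was 0.10 with a minimum of 50 counts. TEFM, the transcription elongation factor of mitochondria, had 39 and 62 counts (log2 ratio 0.75, interval 0.15 to 1.37), and MTERF4, a member of the termination factor family, had 121 and 78 (log2 ratio -0.55, interval -0.98 to -0.13). The third largest, MTERF2 of the same family, had 22 and 23.

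Genes that act on mitochondrial RNA after transcription gave few calls, in both directions. The shares over all 4000 genes were 4.7% higher and 5.38% lower, and the lists are too short to be told apart from them. In RNA processing and decay, 9 genes passed the minimum, their median log2 ratio was 0.08, and PRORP (KIAA0391 in the tables), the nuclease of mitochondrial RNase P that cuts at the 5′ end of tRNAs, was called lower with 28 and 12 counts (log2 ratio -1.14, interval -2.25 to -0.12). PTCD1, ENDOG and TRNT1 had 81 and 95, 29 and 29, and 25 and 25 counts. In the mitochondrial ribosome list, 11 genes reached 10 counts with a median of 0.49 (-0.04 in log2(FPKM + 1), 0.08 with no minimum on counts and 0.28 with a minimum of 50), led by GADD45GIP1, a protein of the large subunit, with 1639 and 2177 (log2 ratio 0.49, interval 0.40 to 0.58), MRPL51 with 127 and 125, and MRPS25 with 129 and 121. There MRPL34 with 31 and 59 counts (log2 ratio 1.01, interval 0.36 to 1.69) and MRPS16 with 7 and 18 (1.44, interval 0.12 to 2.95) were called higher. MRPL19 with 10 and 2 was called lower (log2 ratio -2.24, interval -5.47 to -0.01). The intervals of MRPS16 and MRPL19 came close to equal levels. Among translation factors and synthetases, 9 reached 10 counts with a median of -0.13, led by GATC with 563 and 531 and MTRFR (C12orf65) with 285 and 220. MRRF, the ribosome recycling factor, was called lower with 26 and 10 counts (log2 ratio -1.30, interval -2.51 to -0.20).

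Regulators of mitochondrial biogenesis gave 0 calls among 4 genes with 10 counts, too few to set against 5.38% lower and 4.7% higher over all genes. Their median log2 ratio was 0.16, which was -0.14 with no minimum on counts and 0.44 with a minimum of 50. GABPB1, a subunit of the nuclear respiratory factor GABP, had 151 counts in shvoid and 208 in shFGF9-D1 (log2 ratio 0.54, interval 0.23 to 0.86), its partner GABPA had 109 and 140, and the transcription factor YY1 had 51 and 44. Of nuclear complex I subunits, 5 reached 10 counts with a median of 0.23, led by NDUFB2 with 89 and 99, NDUFA1 with 68 and 68 and NDUFB11 with 60 and 50. NDUFA13, with 5 and 14 counts, was the 1 called higher, with an interval that came close to equal levels (log2 ratio 1.57, interval 0.01 to 3.39). From complexes II to IV, 1 of 29 listed subunits reached 10 counts, CYC1, the cytochrome c1 of complex III, with 11 and 12 (log2 ratio 0.21). From complex V, 7 reached 10 counts with a median of 0.01. ATP5PF (ATP5J), a stalk subunit, was called lower with 37 and 17 counts (log2 ratio -1.04, interval -1.96 to -0.18), beside ATP5MC3 with 20 and 19 and ATP5PD with 23 and 15. The medians of the nuclear subunit lists from 0.01 to 0.23 stood beside -0.62 for the heavy-strand mRNA genes. They rest on 5, 1 and 7 genes, most with few counts, so that they weigh little against the mitochondrial values. In log2(FPKM + 1) they were 0.15 for complex I, 0.48 for complexes II to IV and -0.08 for complex V.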

How the data were processed

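Total RNA of 1 shvoid and 1 shFGF9-D1 culture was sequenced from strand-specific libraries. Per the submitters' processing notes, bcl2fastq 2.1.7, HISAT2, Cufflinks 2.2.1, Cuffdiff and GRCh38.p14 were used. No source at hand states the trimming, the filters, the strand setting or the handling of reads with several matches. Estimated counts were deposited by the authors for each gene, of which 3.73% in shvoid and 3.70% in shFGF9-D1 were not whole, and these were rounded. The authors also deposited FPKM values, which were taken as they stand.

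Totals were 519192 and 502774 counts. Counts were scaled by TMM (edgeR 4.0.16, R 4.3.3) over all 58220 genes, and ratios were given exact Clopper-Pearson 95% intervals conditional on the summed count (scipy 1.17.1). With 1 library per group no p-value was computed. A count of 0 was read against a floor of 3 counts, and no ratio was formed where both counts were at or under it. Ratios of ratios were conditional odds ratios with exact intervals. Strand, position, length and gene type came from GENCODE release 29, matched by identifier for 57882 genes, and copies were aligned to their mitochondrial genes with Biopython 1.88. The interval and call functions were checked on simulated data. Alternatives were scaling by total counts, by DESeq2 1.42.0 size factors, and by TMM over nuclear genes, minima of 0 and 50 counts, log2 of FPKM plus 1 or plus 0.1, and rates per length.

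All 15 members with at least 10 counts are named, with the 5 most counted nuclear copies, and in each nuclear list the 3 most counted genes and every gene called, of which 1 is not reported here. MTCYBP18 and MTND1P8 were named after their values were seen, as were the 10 strongly expressed genes given with the limit on strand. The members, lists and comparisons were chosen with earlier results of these data known.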

Additional observations from a re-analysis of the deposited data

How the results depend on the processing

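The 12 heavy-strand mRNA genes had log2 ratios under 0 in all 6 scalings and units tried. Their median of -0.62 was -0.66 with total counts, -0.70 with DESeq2 size factors (which were 1 for both libraries), and -0.54 in log2(FPKM + 1) and in log2(FPKM + 0.1), and their summed ratio of 0.623 was 0.608 with total counts and 0.589 with DESeq2 size factors. In both FPKM units MT-ND6 turned to -0.022 and the number of members 2-fold lower went from 1 to 0. Per length, light-strand genes held 58.2% of mitochondrial counts in shvoid and 70.4% in shFGF9-D1. The rho of ratio with position was -0.43 in log2(FPKM + 1) and -0.63 with the rRNA genes. The median of all nuclear lists was -0.033 in log2(FPKM + 1) and 0.16 with a minimum of 50 counts. Apart from the scaling or unit itself, the cause was not tested. The tRNA genes gave no value under any setting, since no count passed 3, nor did complexes II to IV and complex V at a minimum of 50 counts. No paired analysis was possible because each group has 1 library and the labels carry no replicate numbers, and for the same reason no library could be left out. Low counts limit the precision for the rRNA, tRNA and most nuclear list genes, and the cause of the low counts was not tested.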
